A study of Mus musculus with 2 samples.

Results

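The annexins are a family of calcium-dependent, phospholipid-binding proteins, and 9 annexin genes (Anxa1, Anxa2, Anxa3, Anxa4, Anxa5, Anxa6, Anxa7, Anxa8 and Anxa11) were followed here by matching the Ensembl identifiers of the gene tables to these symbols. All 9 were found, among 43346 Ensembl genes in tables of 69691 rows. In cells labelled megakaryocyte progenitor, 8 of the 9 reached a level of 1 TPM (the authors' transcript abundance, corrected for length and scaled to a fixed total per library) in both libraries. Anxa1 and Anxa3 together made up 70.2% and 71.4% of the summed annexin TPM, and Anxa8 had no read in either library.

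The study measured total RNA by sequencing in 2 libraries, replicates 1 and 2, of a single group with no treatment and no control. The cells were primary bone marrow cells of male C57BL/6J mice aged 5 to 6 weeks, with no mutation named in the labels, and are labelled CFU-Meg, the colony-forming progenitor of megakaryocytes. The starting material was 1 ng of RNA per library, with added spike-in RNA, and the title of the library protocol names small pools of cells. The replicates are separate biosamples under 1 donor identifier, so the spread between them may be technical and need not be the spread between animals.

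Replicate 1 held 82746658 and replicate 2 held 75652762 expected counts, which are estimated reads in which a read that fits several genes is divided among them. The lineage of the label was checked with marker genes. Of 8 megakaryocyte markers, 1 (Itga2b) reached 1 TPM in both libraries; the list summed to 9.31 and 4.80 TPM in replicates 1 and 2, and Tubb1 had no read in either. All 8 granulocyte markers reached 1 TPM in both libraries and summed to 14579 and 14332 TPM, and all 5 monocyte markers did so with sums of 2918 and 3328 TPM. Of the erythroid markers 4 of 6 (528.65 and 254.16 TPM) and of the mast cell and basophil markers 4 of 4 (124.88 and 148.53 TPM) reached that level. None of 3 B cell, 3 T cell and 4 stromal or endothelial markers did, and Cd3e, Cd3g, Cdh5, Col3a1 and Pdgfra had no read. The markers thus go against the label, and the libraries are called below by their replicate number. In which of these cells the annexin RNA lay was not tested.

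Annexins share a conserved core of repeats, which in most members bind calcium and, through it, the acidic lipids of the inner leaflet of cell membranes, above all phosphatidylserine. The short or long N-terminal tail ahead of the core differs between members and carries the binding sites for partners, many of them S100 proteins or other calcium-binding proteins. Annexins take part in vesicle traffic, in the linking of membranes to actin and in the patching of torn membranes. In blood cells, annexin A1 is known as a glucocorticoid-induced brake on inflammation in neutrophils and monocytes, and annexin A5 as the probe for dying cells and activated platelets.

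The gene models differ in the tail and in the number of repeats. Coding lengths are those of the transcript with the highest mean share over the libraries. For Anxa8, which had no read and so no leading transcript, Anxa8-201 was taken by name order. The lengths were 957 bases (Anxa4 and Anxa5), 969 (Anxa3), 981 (Anxa8), 1017 (Anxa2), 1038 (Anxa1), 1389 (Anxa7), 1509 (Anxa11) and 2019 (Anxa6). Anxa7 and Anxa11 encode the members with long tails, and Anxa6, with a doubled core, had 26 exons against 12 to 15 in the others. Among them, Anxa6 and Anxa7 each have a coding exon that is present in one deposited transcript and absent from the other. The deposited Anxa6 transcripts, of 2471 and 2489 bases, differ in length by the 18 bases of the exon. Those of Anxa7, of 2850 and 2965 bases, differ by more than its 66 bases, so the Anxa7 shares do not turn on the exon alone. These exons are shown in capitals, with 15 bases of the neighbouring exons on each side in lower case. The Anxa6 exon of 18 bases lies at chr11:54987051-54987068 and the Anxa7 exon of 66 bases at chr14:20467458-20467523, both on the minus strand of GRCm38. Both lengths are multiples of 3, so neither exon shifts the reading frame.
Anxa6 exon of Anxa6-202: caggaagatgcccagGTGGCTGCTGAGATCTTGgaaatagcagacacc
Anxa7 exon of Anxa7-202: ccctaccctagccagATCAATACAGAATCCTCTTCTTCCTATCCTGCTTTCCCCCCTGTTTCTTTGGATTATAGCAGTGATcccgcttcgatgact

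Promoters are shown for the member with the highest level (Anxa1), for the member that is best known for an S100 partner (Anxa2) and for the member without a read (Anxa8). Each runs from 250 bases before to 50 bases after a RefSeq transcript start on GRCm38.p6, 5′ to 3′ on the strand of the gene. RefSeq windows were matched for 7 of the 9 members (9 windows), and Anxa3 and Anxa6 had none. They were searched on both strands for TATAAA, a common form of the TATA box, and for GGGCGG, the core of the GC box, and matches are in capitals. These motifs do not overlap each other as letters. TATAAA stood in 13.6% and GGGCGG in 35.6% of all 32817 RefSeq windows of the same length.
Anxa1, chr19:20390622-20390921, minus strand: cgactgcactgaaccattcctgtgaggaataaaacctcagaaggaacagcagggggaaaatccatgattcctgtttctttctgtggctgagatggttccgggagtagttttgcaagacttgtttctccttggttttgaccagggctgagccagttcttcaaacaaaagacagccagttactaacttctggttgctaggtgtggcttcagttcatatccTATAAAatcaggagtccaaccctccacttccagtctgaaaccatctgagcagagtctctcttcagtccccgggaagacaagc
Anxa2, chr9:69453433-69453732, plus strand: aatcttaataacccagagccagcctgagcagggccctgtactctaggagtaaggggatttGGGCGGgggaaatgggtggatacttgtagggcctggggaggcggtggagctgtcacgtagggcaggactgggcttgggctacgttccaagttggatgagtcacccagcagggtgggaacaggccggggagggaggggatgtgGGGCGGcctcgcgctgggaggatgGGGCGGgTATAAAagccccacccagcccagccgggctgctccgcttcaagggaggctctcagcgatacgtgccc
Anxa8, chr14:34085729-34086028, plus strand: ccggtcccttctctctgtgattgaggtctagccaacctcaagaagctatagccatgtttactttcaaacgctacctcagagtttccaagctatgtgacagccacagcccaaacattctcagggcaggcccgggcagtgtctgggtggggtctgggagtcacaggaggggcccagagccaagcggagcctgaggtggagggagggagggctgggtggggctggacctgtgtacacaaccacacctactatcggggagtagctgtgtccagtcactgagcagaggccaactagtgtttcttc

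In the Anxa1 window TATAAA began 32 bases upstream of the RefSeq start, and the window held 3 CG dinucleotides. In the Anxa2 window TATAAA began 17 bases upstream, next to a GGGCGG that began 24 bases upstream, with other GGGCGG matches at 48 and 190 bases upstream, and the window held 13 CG dinucleotides. The Anxa8 window held neither motif and 5 CG dinucleotides, against a median of 7 over all windows. Of the windows not shown, the one of Anxa11 held GGGCGG on the opposite strand at 15, 34 and 53 bases upstream, and both windows of Anxa7 and 1 of the windows of Anxa4 also held it. The window of Anxa5 held neither motif and 16 CG dinucleotides. Of the windows searched, none other than those of Anxa1 and Anxa2 held TATAAA, and the promoters of Anxa3 and Anxa6 were not searched. Distances are from the RefSeq starts, which for Anxa1 and Anxa2 lie inside the GENCODE gene spans. The span of Anxa1 runs to chr19:20390944, past the end of its window at 20390921. That of Anxa2 begins at chr9:69453620, so its TATAAA lies within the GENCODE gene. A match describes these letters in these windows and shows no binding.

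Anxa1 (ENSMUSG00000024659.10, chr19:20373428-20390944), which encodes the ligand of formyl peptide receptors and a binding partner of S100A11, had the highest level of the family. It stood at 199.07 TPM in replicate 1 and 241.32 TPM in replicate 2, from 15298 and 17731 expected counts, a mean of 220 ± 29.9 TPM (SD, n = 2). The authors' interval, whose credibility level is not stated in the sources used here, spanned 192 to 201 TPM (replicate 1) and 232 to 243 TPM (replicate 2). That mean ranked Anxa1 at 238 of the 21461 protein-coding genes outside the mitochondrial genome.

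Anxa3 (ENSMUSG00000029484.8, chr5:96793339-96845966), an annexin known for its abundance in neutrophils, was the next. It stood at 127.96 and 147.80 TPM in replicates 1 and 2, a mean of 138 ± 14.0 TPM (SD, n = 2), and ranked 406. Anxa1 lay above Anxa3 in each library, by 1.56-fold in replicate 1 and 1.63-fold in replicate 2, and the values of the pair did not overlap across libraries. That separation holds for the whole genes: with protein-coding transcripts alone, a choice made after the data were seen, Anxa1 stood at 145.58 and 183.99 TPM, and its lower value fell below the higher value of Anxa3.

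Anxa2 and Anxa5 formed the middle of the order. Anxa2 (ENSMUSG00000032231.10, chr9:69453620-69491795), which joins S100A10 in a complex that binds plasminogen and its activator at the cell surface, stood at 45.54 and 58.27 TPM in replicates 1 and 2, with a mean of 51.9 ± 9.00 TPM (SD, n = 2) and rank 1205. Anxa5 (ENSMUSG00000027712.9, chr3:36448923-36475894), the phosphatidylserine probe, which also forms crystal-like sheets on membranes, stood at 46.93 and 50.02 TPM, with a mean of 48.5 ± 2.18 TPM (SD, n = 2) and rank 1311. Anxa5 was the higher of the pair in replicate 1 and Anxa2 in replicate 2, so the order of these neighbours is not settled by the 2 libraries. Both lay under Anxa3 and above Anxa7 in every library.

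Anxa7 (ENSMUSG00000021814.12, chr14:20455260-20480133), also called synexin and known for the aggregation of secretory granules, stood at 17.82 and 18.99 TPM in replicates 1 and 2, a mean of 18.4 ± 0.83 TPM (SD, n = 2). Anxa6 (ENSMUSG00000018340.9, chr11:54979108-55033445), which brings the Ras regulator RASA1 to membranes, stood at 14.71 and 15.52 TPM, a mean of 15.1 ± 0.57 TPM (SD, n = 2). These neighbours did not overlap. They ranked 3506 and 4124 among the protein-coding genes.

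Anxa4 and Anxa11 were the lowest of the 8 members with reads. Anxa4 (ENSMUSG00000029994.13, chr6:86736840-86793584), known mostly from secretory epithelia, stood at 7.46 TPM in replicate 1 and 6.04 TPM in replicate 2, a mean of 6.75 ± 1.00 TPM (SD, n = 2). Anxa11 (ENSMUSG00000021866.11, chr14:25842156-25886804), which in human cells couples RNA granules to lysosomes, stood at 6.10 and 6.67 TPM, a mean of 6.39 ± 0.40 TPM (SD, n = 2). The values of this pair overlapped, and their ranks were 6659 and 6805.

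Anxa8 (ENSMUSG00000021950.11, chr14:34085981-34100571), known from epithelia and, in human patients, from acute promyelocytic leukaemia cells, had 0 expected counts in both libraries. A count of 0 allows up to 3 reads, which would be 0.0344 and 0.0370 TPM in replicates 1 and 2. The upper bounds of the authors' intervals for Anxa8 were higher, at 0.0582 and 0.0618 TPM. A gene that overlaps Anxa8 on the other strand, A630023A22Rik, was also listed at 0 in both.

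**Figure D1:**
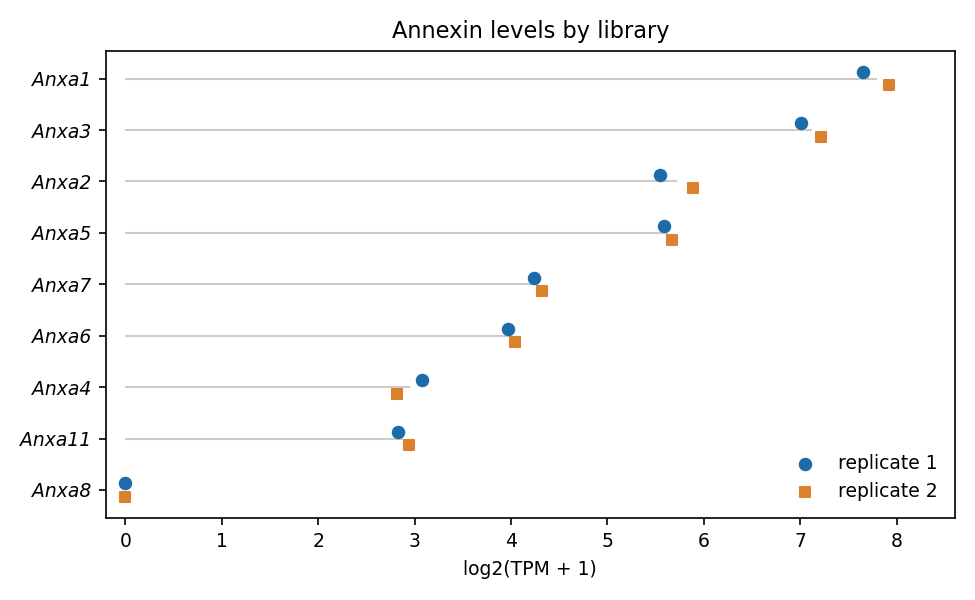
Levels of the 9 annexin genes on the scale log2(TPM + 1), with replicate 1 as circles and replicate 2 as squares; grey lines run to the value of the mean TPM. Genes are ordered by mean, from Anxa1 at 199.07 and 241.32 TPM to Anxa8 without reads, and the points of Anxa2 and Anxa5 and of Anxa4 and Anxa11 overlap.

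Summed over the 9 members, annexin RNA came to 465.59 and 544.63 TPM in replicates 1 and 2, a mean of 505 ± 55.9 TPM (SD, n = 2), which was 0.116% and 0.134% of the TPM of protein-coding genes. The median annexin stood at 18.4 TPM and 6 of the 9 were at 10 TPM or more. The median protein-coding gene stood at 0.585 TPM, and 46.2% of the 21461 protein-coding genes reached 1 TPM in both libraries, against 8 of 9 annexins. The members were picked with results of these data known, so these counts are a description.

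The gene levels hold transcripts of several kinds. The tables list 33 transcripts for the 9 genes, and 7 of the genes have more than 1. Anxa3 and Anxa5 have a single transcript each. A single protein-coding transcript took nearly the whole of Anxa2 (Anxa2-201, 98.6% and 98.9% of the gene's TPM in replicates 1 and 2) and of Anxa11 (Anxa11-201, 96.2% and 93.9%).

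Anxa1 had a sizeable share outside its coding transcript. The coding transcript Anxa1-201 held 73.1% and 76.2% of the Anxa1 TPM in replicates 1 and 2, and the retained-intron transcript Anxa1-202 held 24.3% and 21.6%, or 48.28 and 52.12 TPM. The authors' intervals for Anxa1-202 overlapped between the libraries, spanning 43.4 to 51.7 TPM (replicate 1) and 46.1 to 56.1 TPM (replicate 2). Those for Anxa1-201 did not, at 141 to 146 and 178 to 184 TPM. Anxa1-202 is short and shares exons with the coding transcript, so its part of the level is an estimate; expected counts put 1318 and 1329 reads on it, against 13889 and 16316 on Anxa1-201.

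Anxa6 was divided between transcripts with and without the 18-base exon. Anxa6-202, which has the exon, held 53.3% of the Anxa6 TPM in replicate 1 and 65.5% in replicate 2, and Anxa6-201, which lacks it, held 46.5% and 33.9%. Anxa6-202 led in both libraries. Its intervals overlapped between the libraries, at 6.62 to 8.64 TPM and 8.49 to 11.5 TPM.

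Anxa7 was mostly the transcript without the 66-base exon, which is known from muscle, heart and brain as the mark of the longer protein. The transcripts differ in length by more than this exon, so their shares do not measure its inclusion alone. Anxa7-201, without the exon, held 94.1% of the Anxa7 TPM in replicate 1 and 74.1% in replicate 2. Anxa7-202, with it, held 5.91% and 25.9%, or 1.05 and 4.92 TPM. The intervals of Anxa7-202, 0.116 to 2.52 TPM (replicate 1) and 2.60 to 7.42 TPM (replicate 2), did not overlap. Those of Anxa7-201 did, at 14.8 to 17.7 TPM (replicate 1) and 11.2 to 16.3 TPM (replicate 2). The whole gene stood at 17.82 and 18.99 TPM. No test across transcripts was run on the difference in shares between the libraries.

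In Anxa4 the leading transcript changed with the library. Anxa4-201 held 57.3% in replicate 1 and 34.9% in replicate 2, and Anxa4-202 held 42.4% and 61.8%. The pair has the same coding sequence and differs in its first, non-coding exons. The intervals of each overlapped between the libraries, for Anxa4-202 at 1.18 to 4.75 TPM and 1.01 to 5.43 TPM, so the reads do not settle which of them led.

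**Figure D2:**
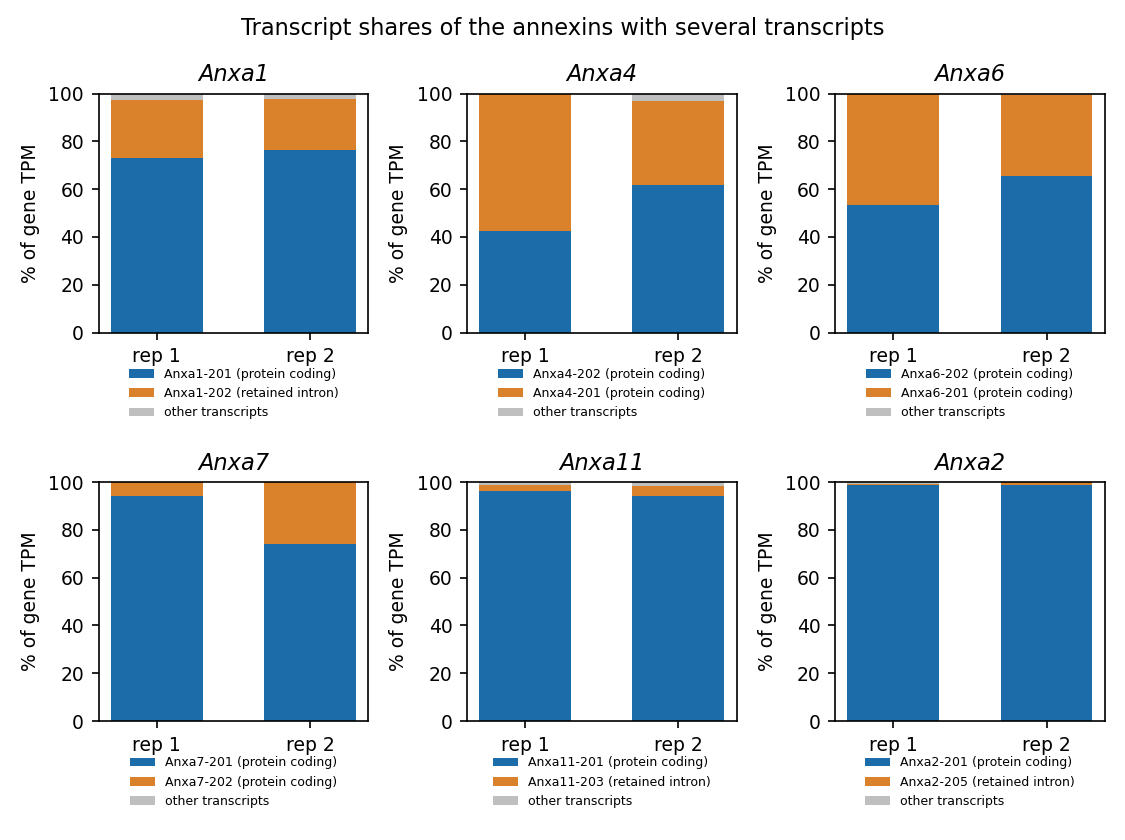
Share of each gene's TPM, in percent, assigned to its 2 leading transcripts and to all others, in replicate 1 (left bar) and replicate 2 (right bar), for the 6 annexins that have several transcripts and reads. Anxa1 holds a retained-intron share of 24.3% and 21.6%, Anxa7-202 holds 5.91% and 25.9%, and the order of the Anxa4 transcripts changes between the bars.

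Whether reads of an annexin could also fit another gene was asked of the transcripts of GENCODE M21, which is a later release than the one the authors counted on. Runs of 50 bases on both strands were compared. The leading transcripts of Anxa1, Anxa2, Anxa3, Anxa5, Anxa6 and Anxa7 shared no run with an M21 transcript of another gene. Nor did Anxa8-201, taken for Anxa8, which had no leading transcript. By these transcripts, no member shared a run with another member. Anxa4 shared 1.46% of its runs with Gm44036. Anxa11 was the exception, with 678 of its 2345 runs (28.9%) also found elsewhere.

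Most of the shared stretch of Anxa11 lies in the unprocessed pseudogenes Gm2260 (chr14:26016431-26025837) and Gm2274 (chr14:26156036-26163648), both on the chromosome of Anxa11. The M21 transcript of Gm2260, of 657 bases, matched bases 1001 to 1657 of Anxa11-201, and that of Gm2274, of 609 bases, matched bases 999 to 1600. The coding part of Anxa11-201 spans bases 149 to 1657 of 2394. In the deposited tables both of these pseudogene transcripts had 0 expected counts in both libraries. The reads of the pseudogenes, 1019 and 943 for Gm2274 and 229 and 213 for Gm2260 in replicates 1 and 2, were all given to longer transcripts of 1387 and 1403 bases that M21 does not hold and that were not compared with Anxa11 here. How many of those reads also fit Anxa11 is therefore not known from these files. As an upper bound chosen after the data were seen, giving every one of them to Anxa11, which had 859 and 875 expected counts itself, would put it at 14.96 and 15.49 TPM, among the values of Anxa6 (14.71 and 15.52 TPM).

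The antisense gene Anxa11os, which shares 68 runs with Anxa11, stood at 0.21 and 0.03 TPM in replicates 1 and 2. Whether counting used strand is not stated in the sources used here, so reads of an annexin and of a gene on its other strand cannot be told apart. The other such genes, Gm16144 at Anxa2 (0.12 and 0.25 TPM) and 1500015L24Rik at Anxa1 (0 in both), lay under 1 TPM.

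The replicates were compared with each other as libraries, since no condition was varied. Expected counts of each gene were set against the ratio of the scaled library sizes in an exact two-sided binomial test with Benjamini-Hochberg adjustment over 14304 genes, and log2 ratios are replicate 1 over replicate 2. A gene was called at an adjusted p under 0.05 together with a log2 ratio of 1 or more in size. By that rule 0 of the 8 members with reads were called, where 7.66% of all genes tested were called (5.04% with more in replicate 1, 2.62% with more in replicate 2).

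By the adjusted p alone, all 8 passed, 7 of them with more in replicate 2 and 1, Anxa4, with more in replicate 1. At this depth 59.0% of all genes tested passed as well, 29.7% with more in replicate 1 and 29.4% with more in replicate 2, and at an unadjusted p under 0.05 it was 62.6%, with all 8 annexins. With the size factors of DESeq2 in place of TMM scaling, 0 annexins were again called and all 8 again passed by the adjusted p. The median log2 ratio of the 8 annexins was -0.16 and the median size of their log2 ratio was 0.21, which was also the median size over all genes tested. By level, the median size over all genes was 0.11 at 100 TPM or more, where Anxa1 and Anxa3 lie, 0.13 between 10 and 100 TPM, where Anxa2, Anxa5, Anxa6 and Anxa7 lie, and 0.25 between 1 and 10 TPM, where Anxa4 and Anxa11 lie.

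Anxa1, Anxa2 and Anxa3 differed most clearly. The log2 ratio of Anxa1 was -0.36 (exact binomial test, adjusted p = 1.2e-112), that of Anxa2 -0.41 (exact binomial test, adjusted p = 2.2e-35) and that of Anxa3 -0.25 (exact binomial test, adjusted p = 5e-40), so each was higher in replicate 2. Anxa5, Anxa6, Anxa7 and Anxa11 lay between -0.18 and -0.12, and Anxa4 at 0.24 with an adjusted p of 0.0024 in the same exact test. If every 4 reads were copies of 1 molecule, Anxa1, Anxa2 and Anxa3 would keep an adjusted p under 0.05 and the other 5 would lose it. The p-values cover the counting error of reads between these libraries, and neither that of molecules nor the spread between animals.

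Markers of other cells also differed between the libraries. The monocyte markers summed to 2918 and 3328 TPM in replicates 1 and 2, and all 5 had negative log2 ratios, as Anxa1, Anxa2 and Anxa3 did. Among the granulocyte markers, Camp stood at 142.39 and 268.18 TPM and S100a8 at 1313 and 2377 TPM, while Elane stood at 3661 and 2759 TPM. Their part in the annexin ratios was not tested. In such bulk libraries, fewer cells of a type and less RNA per cell cannot be told apart.

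**Figure D3:**
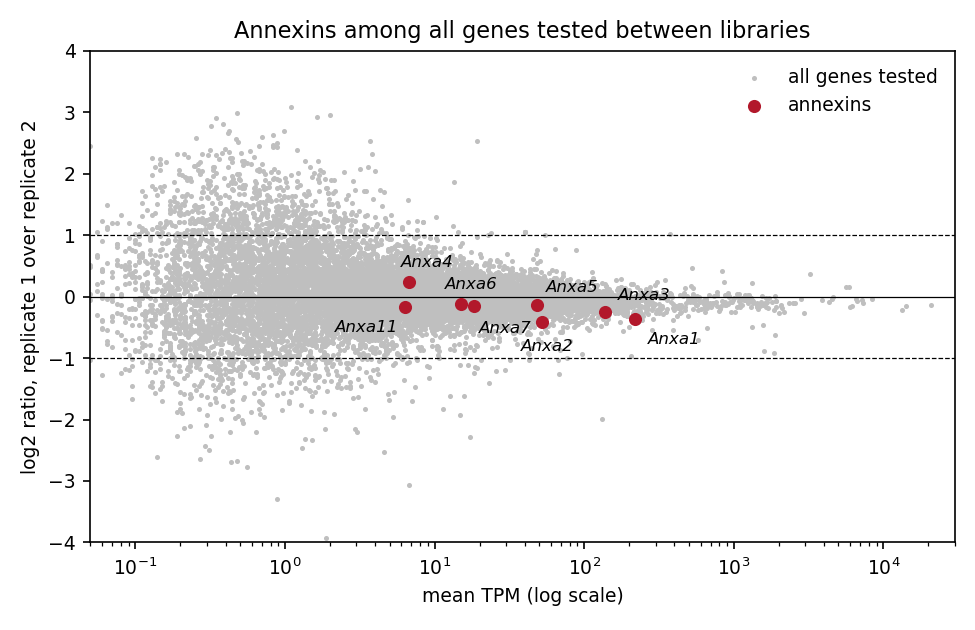
Log2 ratio of replicate 1 over replicate 2 against mean TPM (log axis) for the genes tested (grey; 17 lie outside the axes) and the 8 members with reads (red), with dashed lines at a log2 ratio of 1 and -1. The annexins all lie between the dashed lines, at -0.41 to 0.24, and 7 of the 8 lie under 0.

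The other genes of the annexin pathway were taken from 8 lists of 54 genes, of which 33 reached 1 TPM in both libraries. None of the 38 tested was called between the libraries, where 7.66% of all genes tested were. Of the annexin genes outside the members, Anxa9, whose product binds calcium poorly, stood at 6.62 and 4.65 TPM in replicates 1 and 2, and Anxa10 and Anxa13 had no read.

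The S100 partners bind annexin tails as dimers. All 4 of their genes reached 1 TPM in both libraries, and the list median was 38.4 TPM. S100a11, the partner of annexin A1, was the highest at 718.45 and 742.03 TPM in replicates 1 and 2, above Anxa1 in each. S100a10, the partner of annexin A2, stood at 63.49 and 60.71 TPM, close to Anxa2 at 45.54 and 58.27 TPM. S100a4 stood at 12.95 and 16.51 TPM and S100a6 at 7.38 and 13.83 TPM. These are levels per length of RNA and say nothing of protein.

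Of 10 other partners and effectors, 7 reached 1 TPM in both libraries, with a list median of 10.6 TPM. Sri, which encodes sorcin, the calcium-binding partner of annexin A7, stood at 80.07 and 84.21 TPM. Pdcd6, which encodes ALG-2, a partner of annexins A7 and A11, stood at 42.05 and 44.36 TPM. Rasa1, the partner of annexin A6, stood at 38.29 and 38.07 TPM, and Trpm7, a channel whose kinase acts on annexin A1, at 37.00 and 35.51 TPM. Each of these had a level above that of the annexin it binds, apart from Trpm7, which lay under Anxa1.

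Of the formyl peptide receptors, through which annexin A1 acts, Fpr2 stood at 4.97 and 7.22 TPM, Fpr1 at 0.96 and 0.74 TPM, and Fpr3 had no read. Pla2g4a, which encodes a phospholipase A2, the type of activity that annexin A1 was first known to inhibit, stood at 16.06 and 14.27 TPM. Ahnak, a scaffold that binds annexin A2 with S100A10, stood at 2.52 and 4.32 TPM. The kinase gene Src, whose product acts on annexin A2, was at 0.11 TPM in replicate 1 and 0 in replicate 2.

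The genes of fibrinolysis, in which annexin A2 acts at the cell surface, were low. Of 6, 2 reached 1 TPM in both libraries, with a list median of 0.17 TPM. Plaur, the receptor of urokinase, stood at 5.40 and 5.82 TPM and Plau, urokinase itself, at 1.39 and 1.52 TPM. Plat, the tissue activator that annexin A2 binds, had no read, and Plg and Serpinb2 lay between 0.05 and 0.31 TPM.

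Genes of membrane repair, in which annexins act beside calpains and the ESCRT machinery, were mostly present. Of 10, 7 reached 1 TPM in both libraries, with a list median of 10.3 TPM. The calpain subunit Capns1 stood at 129.61 and 136.19 TPM, and the ESCRT genes Pdcd6ip at 46.87 and 50.50 TPM, Vps4b at 44.10 and 39.67 TPM and Chmp4b at 33.50 and 37.20 TPM. Vps4a, Capn1 and Capn2 also reached that level, Myof lay at 0.37 and 0.26 TPM, and Dysf and Trim72, best known from muscle, had no read.

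All 8 genes of the list on lipid scrambling and flipping between the leaflets of the membrane reached 1 TPM in both libraries. The list median was 18.2 TPM. Tmem30a, the subunit shared by most flippases, stood at 31.73 and 37.06 TPM, Plscr3 at 25.04 and 25.92 TPM, the flippase gene Atp8a1 at 27.03 and 20.05 TPM and Plscr1 at 27.04 and 19.63 TPM. Ano6, Atp11a and the scramblase gene Xkr8 also reached it. Another list held 7 genes of receptors and bridging proteins through which cells recognize exposed phosphatidylserine, the lipid that annexin A5 binds. Of these, Mfge8 alone reached 1 TPM in both, at 2.95 and 3.62 TPM, and the list median was 0.04 TPM. Axl, Mertk, Tyro3, Gas6, Stab2 and Timd4 lay between 0 and 0.93 TPM.

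Copines are another family that binds membranes in a calcium-dependent way. Their list of 6 had a median of 8.01 TPM, and 3 of them reached 1 TPM in both libraries: Cpne2 at 42.59 and 38.68 TPM, Cpne3 at 24.12 and 29.73 TPM and Cpne1 at 15.16 and 16.23 TPM. Cpne5, Cpne7 and Cpne8 lay between 0 and 0.38 TPM. The highest copine thus lay under the 2 leading annexins.

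**Figure D4:**
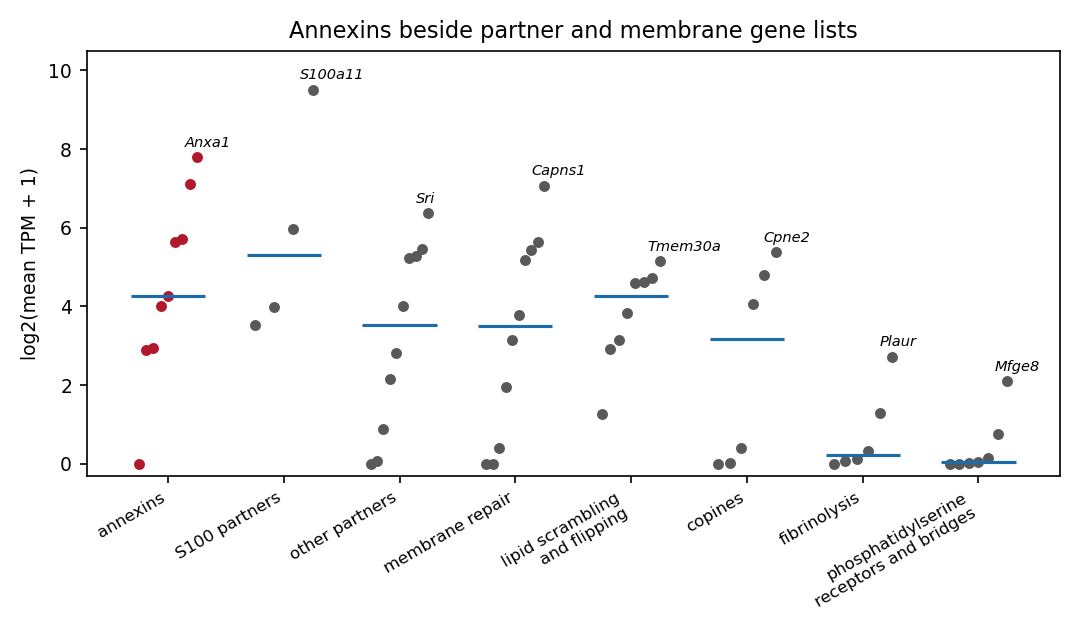
Mean TPM over the 2 libraries, on the scale log2(TPM + 1), of the annexins (red) and of the genes of 7 lists (grey), with the list median as a blue line and the highest gene of each list named. The annexin median of 18.4 TPM is close to that of the lipid scrambling and flipping genes at 18.2 TPM and under that of the S100 partners at 38.4 TPM.

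The protein-coding genes with the level most like that of Anxa1 were sought by the Euclidean distance of log2(TPM + 1) over the 2 libraries. The nearest were Cks2 at 205.13 and 250.55 TPM in replicates 1 and 2 (distance 0.069), Eef2 at 208.94 and 239.93 TPM (0.070) and Pdia3 at 204.24 and 229.45 TPM (0.081). Over 2 libraries this likeness says little more than a like level: 44 genes lay nearer to Anxa1 than its own difference between the libraries of 0.28 on that scale.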

How the data were processed

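Total RNA-seq of 2 libraries of 1 group was analysed. Per the file lists deposited with each sample, reads were aligned to mm10 and quantified against GENCODE M4, each library on its own; aligner, quantifier, strand and layout are not stated in the sources used here. The deposited expected counts are estimated reads, not normalized. The authors' TPM is scaled to a fixed total over all rows, so abundant RNA lowers every other TPM. The deposited FPKM is scaled to library size and length. The deposited score columns hold interval bounds. The deposited percent column gives each transcript's share of its gene.

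Symbols and positions came from GENCODE M21 on GRCm38, which matched 98.0% of 43346 Ensembl identifiers, and promoters from RefSeq. Rounded expected counts of genes kept by filterByExpr (edgeR 4.0.16, R 4.3.3) were tested with an exact binomial test (SciPy 1.17.1) against the TMM ratio of the libraries; log2 ratios carry a prior count of 2. The p-values compare libraries and treat every read as independent. PCR copies are not independent molecules, so the p-values cover the counting error of reads only and may understate that of molecules. DESeq2 1.42.0 gave alternative size factors. Levels, with 1 group, are a description. The members and lists were chosen with earlier results of these data known. Named genes are all members, list genes at 1 TPM or more in both libraries with values for the highest 4, those without reads, and the 3 genes nearest to Anxa1; values of further list genes were added after they were seen. Single values of some list genes are not reported here.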

Additional observations from a re-analysis of the deposited data

How the results depend on the processing

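The 8 annexins at 1 TPM in both libraries remained 8 in number with posterior mean TPM, FPKM, rescaled TPM, protein-coding transcripts alone, the reads of Gm2260 and Gm2274 given to Anxa11, and either library left out. Anxa8 had no read and the other 8 stood at 6.04 TPM or more in each library. Leaving a library out or adding reads to Anxa11 could thus not change the number, and the other settings had little room to. In the library comparison 0 were called with DESeq2 size factors, with every gene with a count and with counts divided by 4. The annexin log2 ratio largest in size, that of Anxa2, was -0.41 in each of these settings. It lay far from the threshold of 1, so they had little room to change the calls. The summed level of 505 TPM became 382 as FPKM, 1251 after rescaling over protein-coding genes and 449 with protein-coding transcripts alone; with single libraries left out it ran from 465.59 to 544.63. Neighbours in the order that did not overlap numbered 5, and 4 with protein-coding transcripts alone. The 1096 genes called between the libraries became 3382 when every gene with a count was tested, 521 with counts divided by 4 and 2662 at a log2 ratio of 0.5. With counts divided by 4, the annexins with an adjusted p under 0.05 numbered 3 in place of 7 among those higher in replicate 2, and 0 in place of 1 (Anxa4, adjusted p = 0.24 in the exact binomial test) among those higher in replicate 1. Fewer reads enter the test there by construction. The leading transcript of Anxa4 also changed with the posterior mean estimate and with replicate 2 left out. Of the 54 pathway genes, 34 reached 0.5 TPM and 26 reached 5 TPM in both. The library comparison cannot be run with a library left out. No paired analysis was possible because the series has 1 group.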
